A study of Mus musculus with 6 samples.

Results

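Solute carriers (SLC) are membrane proteins that move amino acids, sugars, ions, metals, vitamins and metabolites across the plasma membrane and the membranes of organelles, and their genes (Slc in the mouse) are numbered by family. The 135 regions described here are the promoter regions of 135 mouse Slc genes, out of 63430 regions of open chromatin in all and out of 9440 protein-coding promoters picked in the same way. A region was a member when its gene was protein-coding, the gene's name began with Slc, a family number, the letter a and a member number, and the centre of the region lay within 1000 bp of the transcription start site (TSS). Where a gene had several such regions, the one nearest to the TSS was taken. The signal played no part in this choice. All 135 passed the filter on low signal, which asked that 3 or more of the 6 libraries reach a value of 10, although Slc39a12 met it through its 3 GFP guide libraries alone.

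The cells were NIH/3T3, a mouse embryonic fibroblast line, carrying CRISPR-Cas13d as a knock-in, an enzyme directed by a guide RNA that cleaves RNA rather than DNA. The Actg1 guide group had 3 libraries from cells transfected with a guide RNA against the mRNA of Actg1, which encodes cytoplasmic gamma-actin. The GFP guide group had 3 libraries from the same knock-in cells transfected with a guide against GFP, so both groups carried Cas13d and a guide. ATAC-seq, a read-out of open chromatin by the cuts of the transposase Tn5, was run on 25000 cells per library. The study asked about the part of mRNA decay in transcriptional adaptation, the response of related genes to a decaying transcript. The libraries are described as biological replicates; separate cultures are not stated, so p-values measure only the spread between these samples, which may be technical. For GFP guide replicates 1 and 2 the difference was within sampling noise, and the pair entered as 1 sample.

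Some facts of the series bear on every value below. Estimated reads in regions ran from 5675595 to 9526821 in the Actg1 guide libraries and from 6785497 to 9472282 in the GFP guide libraries. No Actg1 region was among those analysed here, and accessibility does not measure the level of an mRNA. Fibroblast markers had a promoter region for 9 of 14 genes, with a summed signal of 2650 to 2663 with the Actg1 guide and 3049 to 3182 with the GFP guide. Of these 9, the Actg1 guide libraries had 0 higher and 4 lower (limma, the same counts at an unadjusted p under 0.05), while regions of Pdgfra, Thy1, Dcn, Lum and Fap were not among those used here. Leukocyte markers had a region for 1 of 5 genes (Cd68, 91 to 112 with the Actg1 guide and 42 to 56 with the GFP guide, called higher), neural markers for 1 of 4 (Map2, 170 to 184 with the Actg1 guide and 215 to 254 with the GFP guide, called lower) and epithelial markers for 1 of 7 (Krt8, 95 to 132 with the Actg1 guide and 98 to 117 with the GFP guide, which did not pass). Endothelial and muscle markers had 0 of 4 and 0 of 3. The part of these markers in the results below was not tested. In a bulk library, a change in the share of cells with an open promoter and a change in how open it is in each cell cannot be told apart.

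SLC proteins work as importers, exporters or exchangers, often driven by a sodium or proton gradient. Growing fibroblasts take up glucose through Slc2a1 (GLUT1) and glutamine through Slc1a5 (ASCT2), exchange glutamine for leucine through Slc7a5 with its partner Slc3a2, and release lactate through the Slc16 family. Slc25 proteins connect the mitochondrial matrix with the cytosol, and Slc30 and Slc39 proteins move zinc out of and into the cytosol. Many Slc genes have promoters of the CpG-rich type typical of broadly expressed genes.

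The promoter sequences below were chosen because the results turn on them: Slc1a7 rose most, Slc37a3 and Slc37a2 are paralogues that were called in opposite directions, Slc16a1 carries a lactate transporter, and Slc38a2 and Slc2a1 encode nutrient importers that fell. The groups of Slc37a2 overlapped, and its call depended on single libraries. Each runs from 250 bases before to 50 bases after the start that RefSeq gives on GRCm38.p6, the patch release of the mm10 build, and reads 5′ to 3′ on the strand of the gene. The windows lie at chr4:107968156-107968455 (plus strand) for Slc1a7, chr6:39377658-39377957 (minus) for Slc37a3, chr3:104638414-104638713 (plus) for Slc16a1, chr9:37255689-37255988 (minus) for Slc37a2, chr15:96699679-96699978 (minus) for Slc38a2 and chr4:119108495-119108794 (plus) for Slc2a1. Capitals mark matches, on either strand, to the motifs that are spelled out with the sequence results further on.
Slc1a7: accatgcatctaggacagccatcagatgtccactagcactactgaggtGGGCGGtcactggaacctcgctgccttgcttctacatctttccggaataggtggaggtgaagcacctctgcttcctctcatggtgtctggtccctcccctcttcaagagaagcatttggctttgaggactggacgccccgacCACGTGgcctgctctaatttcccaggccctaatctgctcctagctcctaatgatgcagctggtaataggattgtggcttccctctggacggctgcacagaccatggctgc
Slc37a3: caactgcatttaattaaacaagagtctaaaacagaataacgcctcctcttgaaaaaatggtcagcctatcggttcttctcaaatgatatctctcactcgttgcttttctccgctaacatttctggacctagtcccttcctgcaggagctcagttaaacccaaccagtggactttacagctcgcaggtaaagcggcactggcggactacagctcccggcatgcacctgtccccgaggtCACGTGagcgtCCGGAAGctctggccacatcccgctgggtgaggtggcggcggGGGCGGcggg
Slc16a1: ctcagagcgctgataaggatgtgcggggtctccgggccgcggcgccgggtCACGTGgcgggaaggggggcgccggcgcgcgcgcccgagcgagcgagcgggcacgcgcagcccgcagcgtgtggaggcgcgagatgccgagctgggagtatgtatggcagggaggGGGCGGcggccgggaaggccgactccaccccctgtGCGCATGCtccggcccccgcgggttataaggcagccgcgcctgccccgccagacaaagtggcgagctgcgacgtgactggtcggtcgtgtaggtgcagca
Slc37a2: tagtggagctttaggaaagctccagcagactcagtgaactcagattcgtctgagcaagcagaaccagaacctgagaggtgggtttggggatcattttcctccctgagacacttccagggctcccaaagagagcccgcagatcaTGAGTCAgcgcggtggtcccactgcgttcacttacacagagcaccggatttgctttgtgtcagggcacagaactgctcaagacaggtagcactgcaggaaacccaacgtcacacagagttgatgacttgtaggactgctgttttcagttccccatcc
Slc38a2: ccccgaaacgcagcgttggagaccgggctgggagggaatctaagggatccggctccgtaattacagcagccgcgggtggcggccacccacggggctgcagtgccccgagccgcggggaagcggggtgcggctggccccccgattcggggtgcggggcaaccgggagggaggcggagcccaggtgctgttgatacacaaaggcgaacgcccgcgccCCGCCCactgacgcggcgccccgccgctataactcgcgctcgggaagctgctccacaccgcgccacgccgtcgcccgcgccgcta
Slc2a1: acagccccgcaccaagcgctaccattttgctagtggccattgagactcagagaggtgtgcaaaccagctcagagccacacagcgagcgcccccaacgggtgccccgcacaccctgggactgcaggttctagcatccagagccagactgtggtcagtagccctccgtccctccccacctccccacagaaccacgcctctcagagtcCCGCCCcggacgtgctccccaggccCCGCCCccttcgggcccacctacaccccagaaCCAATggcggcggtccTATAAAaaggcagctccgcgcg

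Within these windows, Slc1a7 held a GC box and an E-box, Slc37a3 an E-box 13 bases before the start, an ETS site that straddles it and a GC box, and Slc16a1 an E-box, a GC box and an NRF1 core. Slc37a2 held a single AP-1 site, Slc38a2 a single GC box, and Slc2a1 a pair of GC boxes followed by a CCAAT box and a TATA box. The start in the table and the start in RefSeq differ for some genes, and the deposited region of Slc1a7 covers the motifs shown but ends before its RefSeq start. A match is a run of letters and not evidence that a factor binds there.

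The comparison asks at which Slc promoters accessibility differed with the Actg1 guide relative to the GFP guide. Of the 135 promoters, 18 passed as higher and 30 as lower in the Actg1 guide libraries (limma, Benjamini-Hochberg adjusted p under 0.05 over all 61327 tested regions). That is 35.6% of the members, close to the 31.3% called among 9382 tested protein-coding promoters and below the 41.3% called among all tested regions. By direction, 13.3% of Slc promoters were higher and 22.2% lower, against 12.4% and 18.9% of protein-coding promoters. The signal of each region is a normalized read count, and fold changes are given as the log2 of the Actg1 guide over the GFP guide after adding 1. The median log2 fold change of the members was -0.0091, against -0.027 over protein-coding promoters and -0.0057 over all regions, so the Slc promoters as a group did not lie far from either.

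The share of higher against lower calls depended on how the libraries were scaled. It was 18 to 30 as deposited, 23 to 24 after cyclic loess scaling and 23 to 21 with equal totals over promoter regions. It was 9 to 9 without GFP guide replicate 3, which leaves 1 GFP guide sample, so that the spread comes from the Actg1 guide libraries alone and the lone sample is assumed to vary like them, and 19 to 20 without Actg1 guide replicate 2. Of the 48 calls, 18 (9 higher and 9 lower) held with any 1 library left out. The 9 lower include Slc39a12, which passed the filter on low signal through its GFP guide libraries alone. In none of the alternatives tried did a called member change sign.

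Most of the changes were small. Of the 48 called promoters, 7 differed by at least 1.5-fold. A difference of at least 2-fold was called at 2 members, Slc1a7 and Slc39a12, and Slc39a12 entered the test only through the group where it is high. Such calls made up 0.778% of protein-coding promoters and 12.2% of all regions. The median size of the log2 fold change, without its sign, was 0.147 at Slc promoters, 0.136 at protein-coding promoters and 0.310 over all regions. All 3 Actg1 guide libraries lay above all 3 GFP guide libraries at 25 members and below them at 34, against 17.3% and 25.8% of protein-coding promoters. Of the called members, 5 had groups that overlapped, and 16 members that did not pass had groups that did not overlap.

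**Figure D1:**
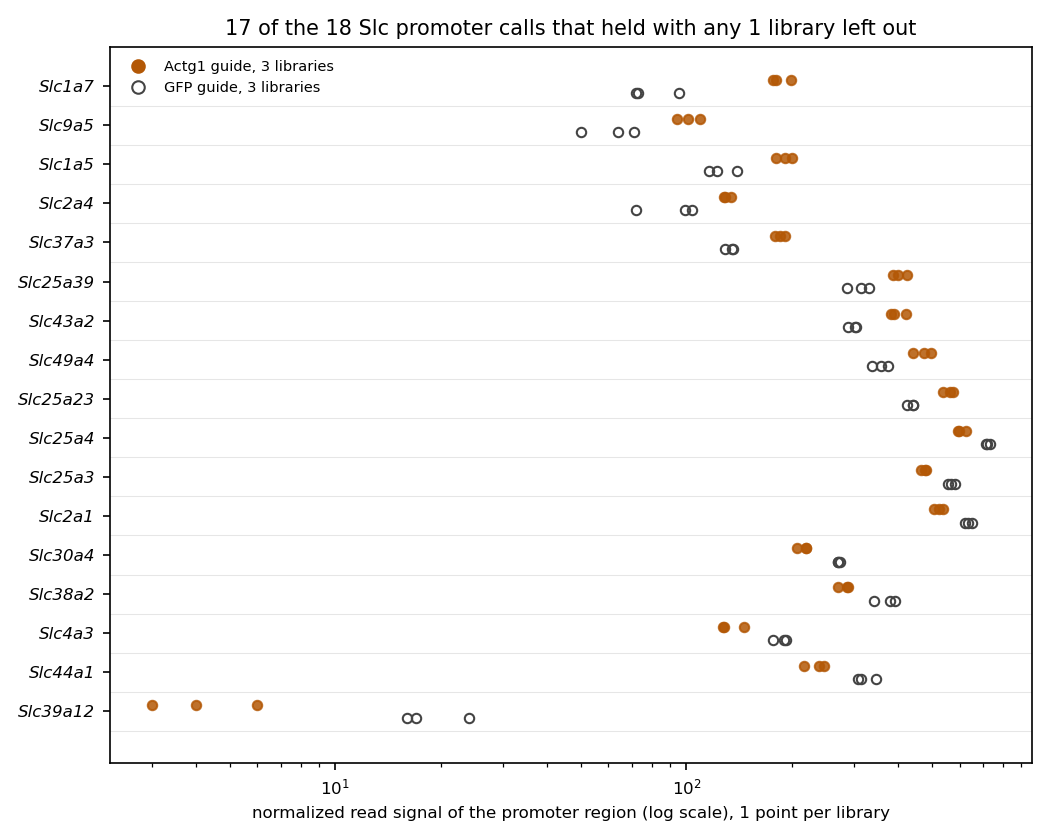
Normalized read signal (log scale) of each library at 17 of the 18 Slc promoters whose call held with any 1 library left out, from the largest rise at the top to the largest fall at the bottom; filled points are the 3 Actg1 guide libraries and open points the 3 GFP guide libraries. At all 17 the groups do not overlap, and the gap is widest at Slc39a12, at a signal of 3 to 6 with the Actg1 guide and 16 to 24 with the GFP guide. Slc39a12 passed the filter on low signal through its GFP guide libraries alone, so that it had to differ to be tested.

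Of the amino acid and peptide transporters 13 of 25 promoters were called, with 6 higher, 7 lower and a median log2 fold change of 0.018. The split was 7 to 4 after cyclic loess scaling and 8 to 4 with equal promoter totals. The largest rise of all members was at Slc1a7, which encodes EAAT5, a glutamate transporter known from the retina. Its region (chr4:107967798-107968379, ending in the first bases of the gene body) had signals of 199, 176 and 180 in the Actg1 guide libraries, against 73, 95 and 72 in the GFP guide libraries. Every Actg1 guide library was far above every GFP guide library, a 2.37-fold rise (log2 fold change 1.24, SE 0.116, adjusted p = 1.57e-11). Slc1a5, the glutamine exchanger ASCT2 (chr7:16781064-16781593), had 180, 200 and 191 with the Actg1 guide and 139, 116 and 122 with the GFP guide. Its groups were also apart, at 1.53-fold (log2 fold change 0.60, SE 0.103, adjusted p = 7.31e-06). The remaining pair of Slc1 promoters, the glial glutamate transporter Slc1a3 and the neutral amino acid exchanger Slc1a4, did not pass, with log2 fold changes of 0.10 (adjusted p = 0.564) and 0.09 (adjusted p = 0.132). Slc1a4, among the 5 Slc promoters of highest signal, had 994, 898 and 973 with the Actg1 guide and 917, 914 and 875 with the GFP guide, and it passed after cyclic loess scaling (adjusted p = 0.0174) and with equal promoter totals (adjusted p = 0.0341). It also passed without Actg1 guide replicate 2 (adjusted p = 0.0345). All 4 Slc1 log2 fold changes were positive as deposited, as were those of 65 of the 135 members. They stayed positive under each of the 3 other scalings, which is no separate support. Those scalings moved the median of all members upward, from -0.0091 to 0.0154 (cyclic loess), -0.0074 (median ratio) and 0.018 (equal promoter totals).

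Further promoters of neutral amino acid transporters were also called. Slc43a2, the facilitated transporter LAT4 (chr11:75531240-75532183), had 422, 383 and 390 with the Actg1 guide and 304, 289 and 303 with the GFP guide. Its 3 Actg1 guide libraries were all higher (log2 fold change 0.41, SE 0.073, adjusted p = 1.45e-05). Slc7a5, the LAT1 light chain that brings in leucine, had 500, 512 and 483 with the Actg1 guide and 437, 430 and 444 with the GFP guide. The groups were close but did not overlap (log2 fold change 0.18, SE 0.063, adjusted p = 0.0177). Its heavy chain Slc3a2 had 477, 544 and 515 with the Actg1 guide and 488, 488 and 476 with the GFP guide, which overlapped and did not pass (log2 fold change 0.08, adjusted p = 0.301). Slc7a6, another light chain of Slc3a2, passed as higher (log2 fold change 0.19, adjusted p = 0.0453). Slc7a11, the cystine importer xCT, also pairs with Slc3a2 and had 49, 38 and 62 with the Actg1 guide and 51, 47 and 62 with the GFP guide, with log2 fold change -0.18 and adjusted p = 0.489. Slc6a21, one of the 3 members of lowest signal, passed as higher with libraries that overlapped, at 12, 18 and 26 with the Actg1 guide and 11, 14 and 6 with the GFP guide (log2 fold change 0.95, SE 0.37, adjusted p = 0.035).

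Slc43a3 was placed in this role by its family, which it shares with Slc43a2, and counts among the 7 lower, but it carries purine nucleobases. Its promoter (chr2:84936462-84936819) had 66, 66 and 83 with the Actg1 guide and 113, 98 and 132 with the GFP guide. Every Actg1 guide library was lower (log2 fold change -0.72, SE 0.144, adjusted p = 7.88e-05). Slc38a2 encodes SNAT2, a sodium-coupled importer of small neutral amino acids that cells induce when amino acids run short. Its region (chr15:96699648-96700486) had 289, 287 and 271 with the Actg1 guide and 380, 342 and 392 with the GFP guide, and the groups were apart (log2 fold change -0.41, SE 0.077, adjusted p = 2.59e-05). Of the 5 Slc38 promoters 3 passed as lower and 0 as higher, in limma both at the adjusted threshold and at an unadjusted p under 0.05. The share called was 60.0% of only 5 promoters, against 31.3% of protein-coding promoters and 41.3% of all tested regions. The other two that passed were Slc38a9, an arginine sensor of the lysosome (-0.31, adjusted p = 0.00275), and Slc38a7, a lysosomal glutamine exporter (-0.24, adjusted p = 0.0459). All 5 log2 fold changes were negative as deposited, while 2 were positive after cyclic loess scaling and with equal promoter totals. Slc66a3, of a family that includes lysosomal amino acid exporters, had 914, 932 and 946 with the Actg1 guide and 978, 1058 and 1055 with the GFP guide, a small fall at high signal (log2 fold change -0.16, SE 0.046, adjusted p = 0.0059). The cationic amino acid transporter Slc7a1 and the lysosomal transporter Slc36a4 also passed as lower, at log2 fold changes of -0.14 and -0.20.

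Of these 13 calls, 9 ended without GFP guide replicate 3 (adjusted p = 0.0525 to 0.704): Slc36a4, Slc38a7, Slc38a9, Slc43a3, Slc66a3, Slc6a21, Slc7a1, Slc7a5 and Slc7a6. Without that library the log2 fold change was -0.057 at Slc36a4, -0.14 at Slc38a7 and 0.48 at Slc6a21. Leaving out 1 of the other libraries ended calls at Slc36a4 and Slc7a1 (Actg1 guide 1, Actg1 guide 3 or GFP guide 2, and for Slc36a4 also Actg1 guide 2), Slc7a6 (any but Actg1 guide 2), Slc38a7 and Slc6a21 (Actg1 guide 2, Actg1 guide 3 or GFP guide 1) and Slc7a5 (Actg1 guide 2), at adjusted p = 0.0515 to 0.365. The calls at Slc36a4, Slc38a7 and Slc7a1 also ended after cyclic loess scaling (adjusted p = 0.0686, 0.0618 and 0.117) and with equal promoter totals (adjusted p = 0.0784, 0.0683 and 0.0911). That at Slc36a4 ended too in limma on 6 separate libraries, without averaging GFP guide replicates 1 and 2 (log2 fold change -0.15, adjusted p = 0.0808). With the replicate number added to that fit, its adjusted p was 0.063. Slc38a7 moved to -0.38 without Actg1 guide replicate 1 and to -0.13 without Actg1 guide replicate 2.

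**Figure D2:**
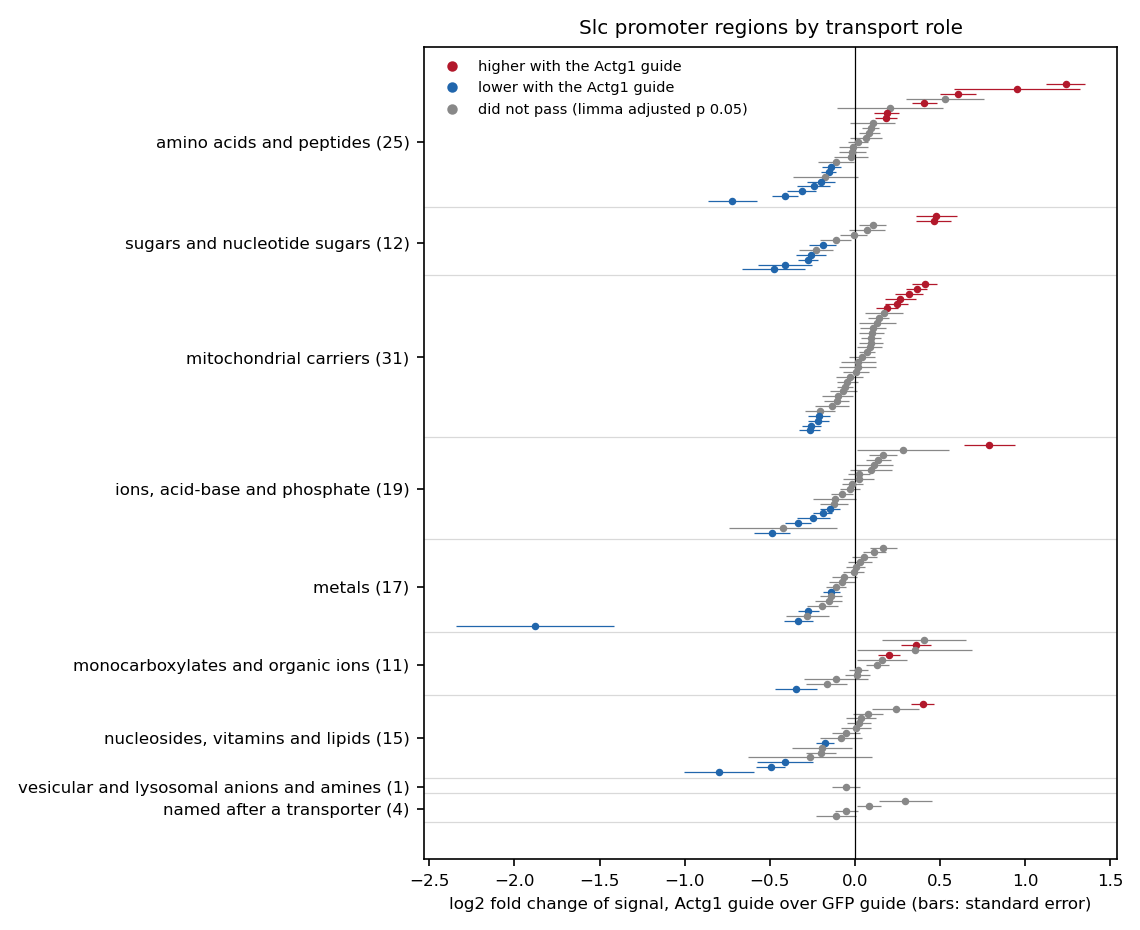
Log2 fold change of each of the 135 Slc promoters, Actg1 guide over GFP guide, with bars of 1 standard error, grouped by transport role with the number of members in parentheses; red points passed as higher, blue as lower and grey did not pass. Most points lie within 0.5 of 0, and the points farthest out are Slc1a7 at 1.24 and Slc39a12 at -1.88.

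Transporters of sugars and of nucleotide sugars had 2 promoters higher and 5 lower of 12, with a median log2 fold change of -0.15, and 2 higher with 4 or 3 lower after cyclic loess scaling and with equal promoter totals. As deposited 58.3% were called, against 31.3% of protein-coding promoters and 41.3% of all tested regions. Slc2a1, the basal glucose importer GLUT1 (chr4:119108503-119109330), had 540, 526 and 509 with the Actg1 guide and 621, 649 and 635 with the GFP guide. All Actg1 guide libraries were lower (log2 fold change -0.27, SE 0.058, adjusted p = 0.000185). Slc2a4, the insulin-responsive importer GLUT4, moved the other way: 129, 134 and 128 with the Actg1 guide and 104, 72 and 99 with the GFP guide (chr11:69948195-69949171). These groups did not overlap, although the GFP guide libraries were spread widely (log2 fold change 0.48, SE 0.121, adjusted p = 0.00139). The paralogues Slc37a3 and Slc37a2, of the family of sugar phosphate exchangers, also differed in direction. Slc37a3 (chr6:39377254-39378110) had 185, 191 and 179 with the Actg1 guide and 135, 129 and 136 with the GFP guide, tight groups that lay apart (log2 fold change 0.46, SE 0.102, adjusted p = 0.000295). Slc37a2 (chr9:37255250-37256080) had 58, 38 and 62 with the Actg1 guide and 55, 72 and 82 with the GFP guide. Its groups overlapped, and the call as lower rested on a wider error (log2 fold change -0.48, SE 0.182, adjusted p = 0.0319).

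The Golgi nucleotide sugar importers Slc35a1 (CMP-sialic acid), Slc35a2 (UDP-galactose) and Slc35a3 (UDP-N-acetylglucosamine) had log2 fold changes of -0.26, -0.19 and -0.11, of which the first and the second passed as lower. Slc45a3, of a family of proton-coupled sugar transporters, had 56, 54 and 57 with the Actg1 guide and 73, 83 and 71 with the GFP guide (log2 fold change -0.41, SE 0.159, adjusted p = 0.0341). Without GFP guide replicate 3, the calls at Slc35a1, Slc35a2, Slc37a2 and Slc45a3 ended (adjusted p = 0.0995 to 0.488), and the Slc37a2 log2 fold change was -0.30. Without Actg1 guide replicate 1, Actg1 guide replicate 2 or GFP guide replicate 2, those at Slc35a2, Slc37a2 and Slc45a3 ended, and without GFP guide replicate 1 that at Slc35a2 (adjusted p = 0.0573 to 0.238); Slc37a2 stood at -0.26 without Actg1 guide replicate 2. The Slc35a2 call also ended after cyclic loess scaling (adjusted p = 0.0807) and with equal promoter totals (adjusted p = 0.0957), and the Slc45a3 call with equal promoter totals (adjusted p = 0.0519).

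Mitochondrial carriers, the 31 Slc25 promoters, had 6 higher and 4 lower and a median log2 fold change of 0.040. The 32.3% called lay near the 31.3% of protein-coding promoters and below the 41.3% of all tested regions. The promoter of Slc25a39, needed for glutathione import into mitochondria (chr11:102407236-102408221), had 388, 425 and 400 with the Actg1 guide and 332, 314 and 286 with the GFP guide. The groups were apart (log2 fold change 0.41, SE 0.074, adjusted p = 1.75e-05). Slc25a23, an ATP-Mg and phosphate carrier (chr17:57059857-57060804), had 562, 573 and 538 with the Actg1 guide and 442, 443 and 424 with the GFP guide, again with no overlap (log2 fold change 0.36, SE 0.062, adjusted p = 6.81e-06). The other rises were smaller: Slc25a14 (0.32), the carnitine-acylcarnitine carrier Slc25a20 (0.27), the branched-chain amino acid carrier Slc25a44 (0.24) and the glycine carrier Slc25a38 (0.19).

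Of the carriers of phosphate and adenine nucleotides beside Slc25a23, Slc25a3 and Slc25a4 were called lower. Slc25a3, which brings phosphate to ATP synthase (chr10:91123324-91124373), had 465, 483 and 479 with the Actg1 guide and 567, 558 and 582 with the GFP guide. Slc25a4, the ADP/ATP exchanger ANT1 (chr8:46210447-46211409), had 627, 595 and 596 with the Actg1 guide and 717, 712 and 733 with the GFP guide. Both had every Actg1 guide library below every GFP guide library, with log2 fold changes of -0.27 (SE 0.061, adjusted p = 0.000452) and -0.26 (SE 0.055, adjusted p = 0.000214). The sister exchanger Slc25a5 (ANT2) had 344, 350 and 395 with the Actg1 guide and 349, 346 and 375 with the GFP guide, which overlapped (log2 fold change 0.01, adjusted p = 0.964). The ornithine carrier Slc25a15 and the carrier Slc25a47 also fell, by 0.21 each on the log2 scale, and the region given to Slc25a47 holds the TSS of Slc25a29 while the RefSeq start of Slc25a47 lies outside it. The 2 Slc25 promoters of highest signal did not pass: the mitochondrial iron importer Slc25a28 had 1087, 1036 and 1065 with the Actg1 guide and 1111, 1134 and 1091 with the GFP guide (adjusted p = 0.301), and the coenzyme A carrier Slc25a42 had 982, 992 and 1025 with the Actg1 guide and 935, 927 and 972 with the GFP guide (adjusted p = 0.222, and 0.0365 after cyclic loess scaling). Without GFP guide replicate 3, the calls at Slc25a14, Slc25a15, Slc25a20, Slc25a38, Slc25a44 and Slc25a47 ended (adjusted p = 0.0515 to 0.239). Those at Slc25a20 and Slc25a38 also ended without Actg1 guide replicate 1 or 3, that at Slc25a20 without GFP guide replicate 1, and that at Slc25a15 without Actg1 guide replicate 2 (log2 fold change -0.13), at adjusted p = 0.0536 to 0.0832.

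Transporters of ions, of acid and base equivalents and of phosphate had 1 promoter higher and 5 lower of 19, with a median log2 fold change of -0.031. This 31.6% called was near the 31.3% of protein-coding promoters and below the 41.3% of all tested regions. The counts were 1 and 4 after cyclic loess scaling, where the median was 0.0048, 1 and 3 with equal promoter totals, and 1 and 2 without GFP guide replicate 3. The single rise was at Slc9a5, a sodium/proton exchanger known from the brain, whose nearest region (chr8:105348432-105348803) lies before the TSS of the deposited table and after the start that RefSeq gives. It had 109, 101 and 94 with the Actg1 guide and 64, 71 and 50 with the GFP guide, groups that did not overlap (log2 fold change 0.79, SE 0.148, adjusted p = 3.06e-05). Slc4a3, the chloride/bicarbonate exchanger AE3 (chr1:75546034-75546918), had 146, 128 and 127 with the Actg1 guide and 190, 176 and 192 with the GFP guide. Every Actg1 guide library was lower (log2 fold change -0.49, SE 0.107, adjusted p = 0.00027).

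The cation-chloride cotransporters set the chloride level and volume of a cell, and Slc12a2 (NKCC1) brings chloride in. Slc12a2 had 541, 534 and 522 with the Actg1 guide and 621, 593 and 608 with the GFP guide (log2 fold change -0.19, SE 0.058, adjusted p = 0.00749). All Actg1 guide libraries were lower. The phosphate importer Slc20a1 had 601, 577 and 597 with the Actg1 guide and 647, 643 and 665 with the GFP guide, close groups that did not overlap (log2 fold change -0.15, SE 0.056, adjusted p = 0.0328). Without GFP guide replicate 3, the calls at Slc12a2 and Slc20a1 ended (adjusted p = 0.0803 and 0.219). That at Slc20a1 also ended without Actg1 guide replicate 2 or 3 (adjusted p = 0.0756 and 0.0521), after cyclic loess scaling (adjusted p = 0.0956) and with equal promoter totals (adjusted p = 0.0764).

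Metal transporters had 0 promoters higher and 4 lower of 17 in limma, with a median log2 fold change of -0.11, 1 higher and 7 lower at an unadjusted p under 0.05, and 1 higher and 3 lower after cyclic loess scaling or with equal promoter totals. At the adjusted threshold 23.5% were called, below the 31.3% of protein-coding promoters and the 41.3% of all tested regions. Slc39a12, the zinc importer ZIP12, had the lowest signal of the members, in a region that lies 918 bp after the TSS (chr2:14389137-14389330). It had 6, 3 and 4 with the Actg1 guide and 24, 17 and 16 with the GFP guide. The groups did not overlap, but the values rest on few reads, and with every Actg1 guide library below 10 the region passed the filter only through the GFP guide libraries, so that it had to differ to be tested (log2 fold change -1.88, SE 0.464, adjusted p = 0.00105). Slc30a4, which loads zinc into vesicles (chr2:122702129-122702906), had 207, 219 and 219 with the Actg1 guide and 274, 270 and 270 with the GFP guide. These were tight groups with no overlap (log2 fold change -0.33, SE 0.086, adjusted p = 0.0017). Slc30a5, a zinc transporter of the secretory pathway, had 517, 484 and 480 with the Actg1 guide and 575, 587 and 613 with the GFP guide (log2 fold change -0.27, SE 0.061, adjusted p = 0.000324). Slc39a13, a zinc transporter known for its part in connective tissue, had 885, 817 and 856 with the Actg1 guide and 882, 897 and 990 with the GFP guide, with overlap at the edge (log2 fold change -0.14, SE 0.051, adjusted p = 0.0259).

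The zinc exporter of the plasma membrane, Slc30a1, had 648, 583 and 642 with the Actg1 guide and 657, 655 and 600 with the GFP guide, groups that overlapped (log2 fold change -0.01, adjusted p = 0.924). Slc39a14, which imports zinc, iron and manganese, had 465, 423 and 485 with the Actg1 guide and 411, 435 and 421 with the GFP guide (log2 fold change 0.11, adjusted p = 0.175, and 0.0479 without Actg1 guide replicate 2). The copper importer Slc31a1 did not pass either (log2 fold change -0.11, adjusted p = 0.135). Without GFP guide replicate 3, the calls at Slc30a5 and Slc39a13 ended (adjusted p = 0.0539 and 0.528), with Slc39a13 at -0.062. The Slc39a13 call also ended without Actg1 guide replicate 2 or 3 (adjusted p = 0.14 and 0.0851), after cyclic loess scaling (adjusted p = 0.0959) and with equal promoter totals (adjusted p = 0.0581).

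Transporters of monocarboxylates and organic ions had 2 promoters higher and 1 lower of 11, with a median log2 fold change of 0.13. Calls made up 27.3%, below the 31.3% of protein-coding promoters and the 41.3% of all tested regions. Slc16a6, a monocarboxylate transporter family member known in zebrafish for ketone body export from liver cells (chr11:109472981-109474105), had 264, 257 and 251 with the Actg1 guide and 193, 224 and 193 with the GFP guide. All Actg1 guide libraries were higher (log2 fold change 0.36, SE 0.087, adjusted p = 0.000919). Slc16a1, the lactate and pyruvate transporter MCT1 (chr3:104638043-104639506), had 479, 464 and 482 with the Actg1 guide and 419, 426 and 404 with the GFP guide, again with no overlap (log2 fold change 0.20, SE 0.065, adjusted p = 0.011). Slc22a15, an organic ion transporter, had 121, 95 and 101 with the Actg1 guide and 128, 134 and 137 with the GFP guide (log2 fold change -0.35, SE 0.124, adjusted p = 0.0219). All 3 calls ended without GFP guide replicate 3 (adjusted p = 0.0592 to 0.219), and that at Slc22a15 also without Actg1 guide replicate 2 or 3 (adjusted p = 0.0988 and 0.0726).

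Transporters of nucleosides, vitamins, heme and lipid precursors had 1 promoter higher and 4 lower of 15, with a median log2 fold change of -0.083. Together 33.3% were called, beside 31.3% of protein-coding promoters and 41.3% of all tested regions. Slc44a1, the choline importer CTL1 (chr4:53439904-53440764), had 238, 246 and 217 with the Actg1 guide and 315, 309 and 347 with the GFP guide. The groups were well apart (log2 fold change -0.49, SE 0.084, adjusted p = 7.01e-06). Slc49a4, a lysosomal membrane transporter (chr16:35768854-35770634), had 498, 476 and 442 with the Actg1 guide and 376, 337 and 359 with the GFP guide. All of its Actg1 guide libraries were higher (log2 fold change 0.40, SE 0.068, adjusted p = 7.56e-06), in a region of 1781 bp that also holds the TSS of Hspbap1. Slc48a1, the heme transporter HRG1 (chr15:97778673-97779076), had 36, 35 and 25 with the Actg1 guide and 53, 64 and 53 with the GFP guide, low signals that did not overlap (log2 fold change -0.80, SE 0.206, adjusted p = 0.00164). Slc27a3, of the fatty acid transport protein family, had 48, 50 and 60 with the Actg1 guide and 66, 72 and 71 with the GFP guide (log2 fold change -0.41, SE 0.167, adjusted p = 0.0443). The thiamine importer Slc19a2 fell by 0.17 on the log2 scale at a mean signal of 779.2. Slc49a3, among the 3 members of lowest signal, had 9, 12 and 14 with the Actg1 guide and 13, 15 and 14 with the GFP guide and did not pass (log2 fold change -0.26, adjusted p = 0.593). Without GFP guide replicate 3, the calls at Slc19a2, Slc27a3 and Slc48a1 ended (adjusted p = 0.0519 to 0.277), with Slc19a2 at -0.098. That at Slc27a3 also ended without Actg1 guide replicate 1 or 2 or GFP guide replicate 2 (adjusted p = 0.0759 to 0.128) and with equal promoter totals (adjusted p = 0.0647).

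The rule also takes in 4 genes that are named after a transporter and are not transporters: Slc4a1ap, Slc7a6os and the scaffold proteins Slc9a3r1 and Slc9a3r2 (NHERF1 and NHERF2). Of these, 0 passed in limma in either direction, and 0 had an unadjusted p under 0.05, with log2 fold changes of -0.11 to 0.30. The vesicular monoamine transporter Slc18a1, the only member of its role, had 276, 249 and 281 with the Actg1 guide and 297, 280 and 268 with the GFP guide and did not pass either (adjusted p = 0.656).

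**Figure D3:**
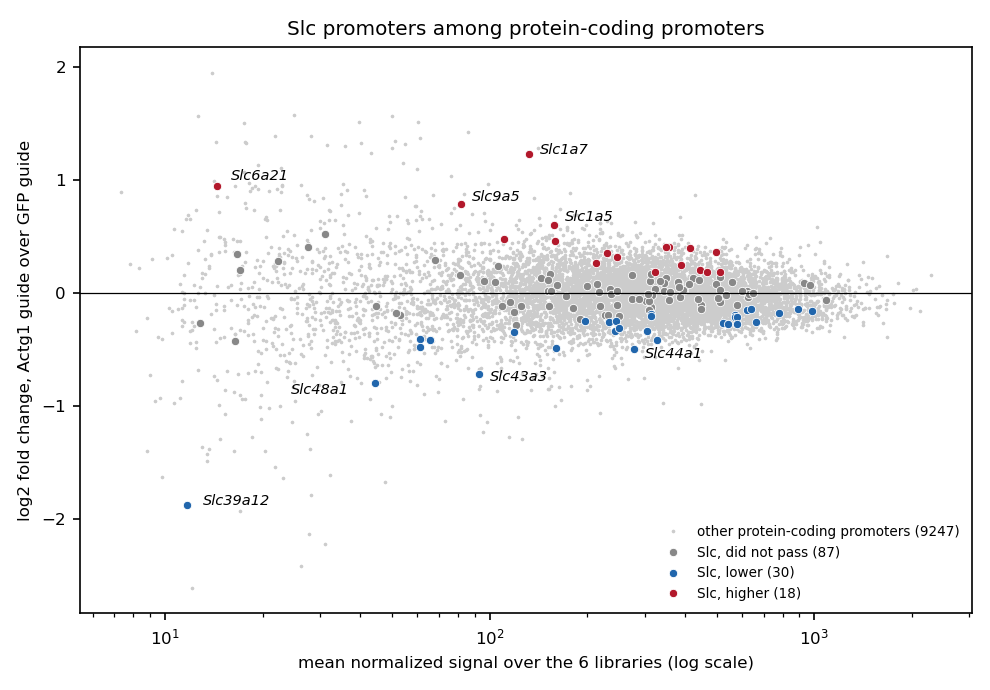
Log2 fold change, Actg1 guide over GFP guide, against the mean normalized signal of the 6 libraries (log scale) for the 135 Slc promoters (red higher, blue lower, dark grey not passing) and 9247 other tested protein-coding promoters (light grey). The Slc promoters spread with the rest and fan out at low signal, where Slc39a12, Slc48a1 and Slc6a21 lie.

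The unsigned log2 fold change holds its own error, which was larger at low signal (SE 0.464 at Slc39a12 and 0.044 at Slc25a28), so a negative relation to signal arises also where no promoter changes. Over the 135 members, the log2 fold change without its sign fell as the log2 mean signal grew (Pearson r = -0.513), and the signed value did not follow it (r = 0.0433). These are descriptions across promoters that share the same 6 libraries. Split at the tertiles of signal of all protein-coding promoters, 15 of 46 Slc promoters were called in the low class, 15 of 46 in the middle class and 18 of 43 in the high class. Protein-coding promoters were called at 24.2%, 29.1% and 40.6% in the same classes, where Slc promoters gave 32.6%, 32.6% and 41.9%. The members' mean signal ran from 11.67 to 1087 with a median of 304, and their length from 133 to 1781 bp with a median of 857 bp. Of the regions, 121 included the TSS, 100 had their centre within 250 bp of it, and 95 had their centre downstream of it and 40 upstream.

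At the edge of the window, the farthest members were Slc26a6 (945 bp, log2 fold change -0.03), Slc26a4 (930 bp, 0.28) and Slc39a12 (918 bp, -1.88). Just outside it lay a region of Slc44a4 (1047 bp, -1.16), one of Slc19a1 (1126 bp, 0.14) and one of Slc27a1 (1281 bp, -0.05).

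Several Slc genes had more than 1 region, which asks whether the regions of a gene moved together. A second region within 1000 bp of the TSS was present at 12 members, and of these 4 were higher, 0 lower and 8 did not pass (limma, also 4 and 0 at an unadjusted p under 0.05). The share called was 33.3%, near the 31.3% of protein-coding promoters and below the 41.3% of all tested regions. At Slc43a2 the second region, 973 bp before the TSS, had 88, 69 and 94 with the Actg1 guide and 70, 59 and 56 with the GFP guide and rose with the promoter (log2 fold change 0.46, adjusted p = 0.0157). The second region of Slc25a39, 734 bp before the TSS, rose by less than its promoter (log2 fold change 0.19, adjusted p = 0.0328). Slc9a5 differed: 478 bp after the TSS it had a region with 105, 105 and 80 with the Actg1 guide and 103, 99 and 93 with the GFP guide. These values overlapped (log2 fold change -0.01, adjusted p = 0.943) beside the rise of 0.79 at the nearest region, and the difference between the pair was not tested. Positions here follow the deposited table, and by RefSeq both of these Slc9a5 regions lie after the start. The second region of Slc38a2, 772 bp after the TSS, likewise had a log2 fold change of 0.01 (adjusted p = 0.925) beside the fall of 0.41 nearer to the TSS. At Slc18a1 the second region, 631 bp before the TSS, had 71, 66 and 67 with the Actg1 guide and 46, 28 and 43 with the GFP guide and rose (log2 fold change 0.75, adjusted p = 0.000387) while the nearest region did not pass. The second region of Slc44a2 passed as higher at 0.77 (adjusted p = 0.0328) with overlapping libraries. With all regions within 1000 bp of a TSS summed per gene, the members' counts stayed at 18 higher and 30 lower.

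Beyond 1000 bp, 37 tested regions belonged to member genes, of which 6 were higher and 2 lower (21.6% called). Among 5058 such regions of protein-coding genes, 1160 were higher and 805 lower (38.8% called), so the share was lower at the member genes. Slc43a3 held the sharpest contrast: a region 2064 bp after the TSS had 123, 103 and 138 with the Actg1 guide and 77, 69 and 55 with the GFP guide. It rose (log2 fold change 0.92, SE 0.143, adjusted p = 1.55e-06) while the promoter fell by 0.72 on the same scale. A region 2801 bp before the TSS of Slc2a1 had 163, 149 and 187 with the Actg1 guide and 214, 227 and 229 with the GFP guide and was lower, as its promoter was (log2 fold change -0.44, adjusted p = 0.000472). A region 2163 bp after the TSS of Slc1a5 had 50, 65 and 42 with the Actg1 guide and 35, 41 and 29 with the GFP guide and was higher, as its promoter was (log2 fold change 0.62, adjusted p = 0.0123). Where the promoter itself did not pass, regions of Slc1a3, Slc26a4, Slc4a2 and Slc6a8 were higher and a region of Slc45a4 was lower. The Slc45a4 region, 5068 bp after the TSS, had 40, 46 and 44 with the Actg1 guide and 82, 77 and 83 with the GFP guide (log2 fold change -0.89, adjusted p = 3.53e-05).

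Of the calls at these other regions of member genes, those at Slc43a3, Slc45a4, Slc26a4 and Slc18a1 held with any 1 library left out. Without GFP guide replicate 3, those at Slc1a3, Slc1a5, Slc25a39, Slc2a1, Slc43a2, Slc44a2, Slc4a2 and Slc6a8 ended (adjusted p = 0.0676 to 0.469), with Slc1a3 at 0.49 against 1.26 with all libraries. Leaving out 1 of the other libraries also ended Slc1a3 (Actg1 guide 3), Slc1a5 (Actg1 guide 1 or 2), Slc25a39 (Actg1 guide 1 or 2 or GFP guide 1), Slc43a2 (Actg1 guide 1 or 3), Slc44a2 (Actg1 guide 1 or 2 or GFP guide 2), Slc4a2 (Actg1 guide 1) and Slc6a8 (Actg1 guide 1), at adjusted p = 0.0504 to 0.215.

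**Figure D4:**
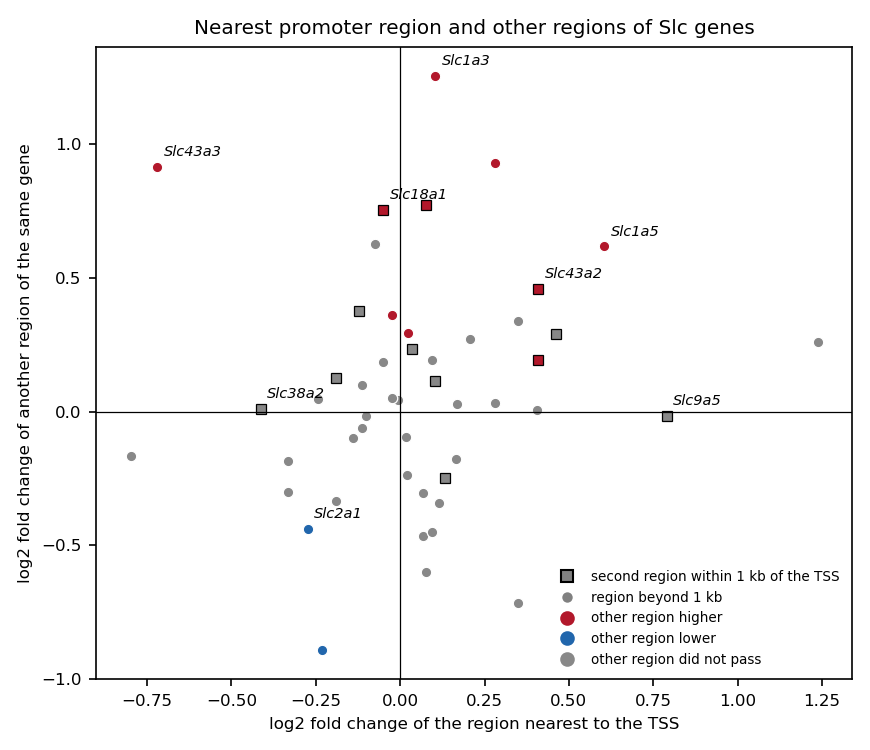
Log2 fold change of another region of an Slc gene (vertical) against that of the gene's region nearest to the TSS (horizontal), both Actg1 guide over GFP guide, with squares for second regions within 1 kb of the TSS and circles for regions farther away, coloured by the call of the other region. Slc1a5 and Slc43a2 lie high on both axes, while Slc43a3 has a fall of 0.72 at the promoter and a rise of 0.92 at the other region.

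A further 34 Slc genes had regions only beyond the window, and 7 of their 41 tested regions were higher and 7 lower. Together 34.1% were called, against 38.8% of such regions of protein-coding genes. Of these 14 calls 7 ended without GFP guide replicate 3 (2 higher and 5 lower, adjusted p = 0.0526 to 0.307): Slc11a1, Slc16a3, Slc29a1, Slc43a1, Slc44a4, Slc6a18 and Slc7a7. Slc16a3 (MCT4, the lactate exporter of glycolytic cells) had 61, 59 and 73 with the Actg1 guide and 81, 85 and 86 with the GFP guide at a region 2455 bp after its TSS (log2 fold change -0.39, adjusted p = 0.0341). This call ended without Actg1 guide replicate 1 or 2 or GFP guide replicate 2 or 3 (adjusted p = 0.0516 to 0.213). Slc29a1, the nucleoside transporter ENT1, had 341, 341 and 308 with the Actg1 guide and 287, 269 and 245 with the GFP guide 3985 bp after its TSS (log2 fold change 0.34, adjusted p = 0.000771), and adjusted p = 0.105 without GFP guide replicate 3. The region 2814 bp before the TSS of the urea transporter gene Slc14a1, chosen after its values were seen, had 333, 311 and 304 with the Actg1 guide and 567, 546 and 573 with the GFP guide. It was far lower in every Actg1 guide library (log2 fold change -0.84, SE 0.069, adjusted p = 6.21e-13).

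Other transport genes were taken from lists outside the name rule. Of 79 tested promoters, 14 were higher and 13 lower, with a median log2 fold change of -0.0071. Together 34.2% were called, against 31.3% of protein-coding promoters and 41.3% of all tested regions. Of these 27 calls 19 ended without GFP guide replicate 3 (adjusted p = 0.0518 to 0.47), among them all 4 of the Mfsd list, 5 of 6 of the ABC list, 5 of 7 of the Slc35 list and 3 of 4 of the proton pump, with Aqp11 and Atp2b1. Subunits of the V-type proton pump, which acidifies lysosomes, had 4 higher and 0 lower of 12 (limma, also 4 and 0 at an unadjusted p under 0.05). With 33.3% called, the share was near that of protein-coding promoters. The promoter of Atp6v0c had 508, 518 and 518 with the Actg1 guide and 391, 418 and 410 with the GFP guide, well apart (log2 fold change 0.34, adjusted p = 3e-05). Atp6v1f had 306, 319 and 271 with the Actg1 guide and 238, 258 and 219 with the GFP guide (log2 fold change 0.35, adjusted p = 0.000886, and 0.123 without GFP guide replicate 3). Genes of the ABC family, most of which encode pumps driven by ATP, had 3 higher and 3 lower of 25. The list was made by name and also holds Abce1, Abcf1, Abcf2 and Abcf3, which act in translation and are not transporters, and Abcf3 is among the 3 higher (log2 fold change 0.22, adjusted p = 0.00208). Mfsd transporters had 3 higher and 1 lower of 12 (33.3% called). The Slc35 subfamilies B to G, mostly Golgi and endoplasmic reticulum transporters, had 4 higher and 3 lower of 14 (50.0% called). Slc35d2 had the largest change, with 93, 99 and 96 with the Actg1 guide and 141, 172 and 130 with the GFP guide (log2 fold change -0.57, adjusted p = 0.000248). Slc35e4 had the largest rise, with 868, 865 and 950 with the Actg1 guide and 705, 726 and 637 with the GFP guide (log2 fold change 0.40, adjusted p = 8.39e-08). Aquaporins had 2 lower of 2, sideroflexins and the mitochondrial pyruvate carrier 2 lower of 5, sodium-potassium pump subunits 1 lower of 4, calcium pumps 1 lower of 3 and Slco organic anion transporters 0 of 2, and in these lists 0 were higher, also at an unadjusted p under 0.05. The largest fall was at the water channel gene Aqp1, with 295, 288 and 319 with the Actg1 guide and 581, 592 and 605 with the GFP guide. Every Actg1 guide library lay far below every GFP guide library (log2 fold change -0.99, SE 0.07, adjusted p = 7.63e-15). Abca9 (-0.66) and the mitochondrial serine transporter family gene Sfxn4 (-0.58) followed, and the Abca9 call ended without GFP guide replicate 3 (adjusted p = 0.0763).

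Of 20 promoters of regulators of transporters, 3 were higher and 4 lower. With 7 of 20 called, the share was near the 31.3% of protein-coding promoters and below the 41.3% of all tested regions. Oxsr1 and Stk39, the kinases that switch on Slc12a2, were both lower: Oxsr1 had 1048, 1037 and 1030 with the Actg1 guide and 1216, 1189 and 1243 with the GFP guide (log2 fold change -0.24, adjusted p = 2.34e-05). Stk39 had 92, 68 and 80 with the Actg1 guide and 92, 96 and 109 with the GFP guide, values that touch (log2 fold change -0.35, adjusted p = 0.0484). Wnk1, the remaining listed kinase that controls cation-chloride cotransport, had 688, 617 and 667 with the Actg1 guide and 645, 669 and 620 with the GFP guide. Its groups overlapped, and it did not pass (log2 fold change 0.04, adjusted p = 0.601). Nedd4, a ubiquitin ligase that removes membrane transporters, had 480, 483 and 457 with the Actg1 guide and 397, 424 and 383 with the GFP guide (log2 fold change 0.25, adjusted p = 0.00172). Keap1, the inhibitor of the antioxidant factor encoded by Nfe2l2, was higher (0.26, adjusted p = 0.0101) and Nfe2l2 itself lower (-0.12, adjusted p = 0.0402). Mlx, a partner of sugar-sensing transcription factors, was higher (0.275, adjusted p = 0.0467), and Tfeb, which drives lysosomal genes, was lower (-0.14, adjusted p = 0.0282). Of these 7 calls only that at Oxsr1 held with any 1 library left out: without GFP guide replicate 3 the others had adjusted p = 0.089 (Nedd4), 0.135 (Keap1), 0.332 (Mlx), 0.192 (Tfeb), 0.515 (Nfe2l2, log2 fold change -0.054) and 0.423 (Stk39). The calls other than Nedd4 and Oxsr1 also ended without 1 or more of the other libraries (Keap1 and Nfe2l2 without Actg1 guide 1, Mlx without Actg1 guide 1, 2 or 3 or GFP guide 1, Tfeb without Actg1 guide 2 or 3 or GFP guide 1, Nfe2l2 and Stk39 without Actg1 guide 2 or 3, Stk39 without GFP guide 2), at adjusted p = 0.0508 to 0.204.

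The promoter sequences of the members were compared with those of other genes as a feature the choice did not use. RefSeq promoters were matched to 105 of the 135 members, and for 91 of these the 300-base window overlapped the deposited region. Both strands were searched, none of the motifs contains another, and each was counted on its own. The GC box was searched as GGGCGG and the CCAAT box by the letters of its name. The TATA box was searched as TATAAA and the ETS site by the letters CCGGAAG. The NRF1 core was searched as GCATGCGC, the E-box in the form CACGTG and the CRE in the form TGACGTCA. The AP-1 site was searched as TGANTCA and the ATF4 element in the form TGATGNAAT. Of the 91 Slc windows, 80.2% held a GC box, against 70.6% of 6745 windows of protein-coding genes with a promoter region and 35.7% of all 32851 promoters of the table. An E-box was in 14.3%, against 10.8% and 7.15%, and an AP-1 site in 7.69%, against 4.8% and 7.81%. A CCAAT box was in 44%, a TATA box in 5.49%, an ETS site in 20.9%, an NRF1 core in 4.4% and a CRE in 2.2% of the Slc windows, and in 39.6%, 6.08%, 20.1%, 6.21% and 3.57% of the windows of protein-coding genes. All promoters of the table held them in 37.4%, 13.6%, 8.86%, 2.71% and 1.79%. The ATF4 element was in 0 of the 91, against 0.311% and 0.965%. The median GC content was 63.7%, against 62.3% and 52.7%.

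Split by call, the GC box was in all 11 windows of promoters that rose, in 21 of 23 that fell and in 41 of 57 that did not pass. The E-box, which the sequences of Slc1a7, Slc37a3 and Slc16a1 above show, was in 4 of 11, 3 of 23 and 6 of 57, and Slc49a4 was the remaining rise that held it. All the rises printed above hold it and so do not stand for the 11. Slc43a2, Slc25a39 and Slc25a23, for example, lack it. An AP-1 site was in 1, 3 and 3. Across the 91 members, GC content and log2 fold change had a Pearson r of -0.237, a description across promoters that share libraries. These are counts over few promoters that differ in GC content, with medians of 58% for those that rose, 65.7% for those that fell and 61.7% for the rest. Of the 135 regions, at least 10 also held the TSS of another protein-coding gene, so that the signal there cannot be given to the Slc gene alone. The count is a minimum, because starts were looked up among RefSeq promoters that do not cover every gene.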

How the data were processed

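The authors deposited, per region and library, a signal: a read count they normalized and rounded to whole numbers, by a formula not stated in the sources used. They also deposited, per the file headers, the fraction of each region inside the gene body, the gene and the TSS distance. The submitters' processing notes name the mm10 build and, with no roles, DESeq, DESeq2 1.36.0, featureCounts, Picard 3.0.0, STAR 2.7.10a and Trimmomatic 0.39. Peak caller and Tn5 offset: not given in the sources used here.

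Limma 3.58.1 (R 4.3.3, mean-variance trend) was fitted to log2(signal + 1), which understates changes at low signal, over 61327 regions that reached 10 in 3 or more libraries (2103 left out), with Benjamini-Hochberg adjustment over them all. A count test was not used because the values are not raw counts. GFP guide replicates 1 and 2 (chi-square per region 1.005, p = 0.194, on reads estimated from the steps of the values, against 1.035 to 1.118 for other pairs) were averaged, leaving 2 GFP guide samples against 3 Actg1 guide samples. The fit was tested on simulated data. Members and lists were chosen with earlier results of these data known. Named were the 10 largest non-overlapping called rises and falls, the largest call of each role, the 5 highest and 3 lowest members by signal, listed well-known transporters, genes named after a transporter and, of other transport genes, the 3 largest called rises and falls and called regulators. Listed Slc11a2 and Slc40a1 were not analysed here. A few members are counted but not reported here by name. Members named beyond this were chosen after their values were seen. Alternatives covered scaling, pseudocount, filter, window, fit and each library left out. Sequences were RefSeq (GRCm38.p6), 103 matched by symbol.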

Additional observations from a re-analysis of the deposited data

How the results depend on the processing

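No called member changed sign under any alternative tried. Limma without a trend kept 19 of the 48 calls. Those at Slc2a1, Slc25a3 and Slc25a4 were among the 29 that ended in it (adjusted p = 0.0789, 0.0836 and 0.0948). The count of higher and of lower Slc promoters moved by over 1.5 times in limma without a trend (10 higher and 9 lower) and without GFP guide replicate 3. Leaving out 1 library gave 9 to 19 higher, 9 to 28 lower and a median log2 fold change of -0.0229 to 0.00174. Of the 30 calls that ended without GFP guide replicate 3, 18 kept at least 80% of their log2 fold change. The median was 0.0154 after cyclic loess scaling and 0.018 with equal totals over promoter regions, where the sign of the median is positive and the calls split 23 to 24 and 23 to 21; the cause was not tested. Pseudocounts of 0.5 and 5, no filter and summed promoter regions left 18 and 30, of the same 48 calls, and median ratio scaling, a mean signal of at least 50 and a window of 500 bp gave 17 or 18 higher and 28 or 29 lower. With 6 separate libraries there were 20 higher and 33 lower, and with the replicate block on top 22 higher and 33 lower. The replicate numbers were not taken to pair the samples: same-numbered libraries of the groups correlated in their deviations at 0.0252, 0.0138 and 0.0161, the highest value for each library but under 0.1. Of the 48 calls, 15 held in every alternative that tested them, among them Slc1a7, Slc9a5, Slc1a5, Slc44a1 and Slc38a2. Slc39a12 is also among the 15, although it passed the filter through its GFP guide libraries alone. Depth limits the members of low signal, Slc39a12, Slc49a3 and Slc6a21.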
